A study of Mus musculus with 40 samples.

Results

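Antisense noncoding RNA genes are transcribed from the strand opposite a protein-coding gene, here called the host. The regions described are the annotated start sites of these genes on chromosomes 1 to 19 of the mouse (GRCm38, GENCODE M21 basic annotation) that lie more than 2000 bp from any protein-coding start site. The rule left 2211 distinct start sites of 1960 genes, out of 3380 start sites of 2913 antisense genes on these chromosomes, and 1169 sites near a protein-coding start were set aside. A mark was counted at a site when the summit of a peak lay within 1000 bp of it. Of the 457842 peaks in 32 lists, 2860 (0.625%) had their summit this close to a qualifying site. The comparison classes were 5474 start sites of intergenic long noncoding RNA (lncRNA) genes under the same distance rule and 39599 protein-coding start sites.

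The study profiled H3K4me3, H3K27ac, H3K4me1 and H3K27me3 in brown fat by ChIP-seq, which sequences the DNA that an antibody to a histone modification pulls down. The animals were 8 C57BL/6N wild types at 20 weeks of age. Mice 1 and 2 were warm on the diet labelled NCD, a chow diet according to the methods, and mice 4 and 5 were on NCD in the cold (4 °C for 24 h). Mice 7 and 8 were warm on a high-fat diet (HFD) given for 12 weeks from 8 weeks of age, and mice 10 and 11 were on HFD in the cold. The series text calls the tissue inguinal and the methods call it interscapular, and the wording of the methods leaves room for 2 mice pooled per experiment. All groups shared the wild type genome and the age, and p-values measure the spread between these 8 sets of libraries.

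A start site is the base at which transcription begins. Active start sites usually carry H3K4me3 on the flanking nucleosomes, H3K27ac is found at active promoters and enhancers, H3K4me1 without H3K4me3 is typical of enhancers, and H3K27me3 is placed by Polycomb complexes at silenced, often developmental, genes. Promoters rich in CpG dinucleotides are the usual places of broad, recurrent H3K4me3. An antisense RNA whose first base lies inside its host can start from a promoter of its own, from an intragenic enhancer, or close to an alternative start of the host, and the marks at the start differ between these settings.

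Of the 2211 sites, 1392 (63.0%) lay in an intron of the host, 164 in a coding exon, 123 in a 3' UTR and 7 in a 5' UTR. A further 382 belonged to antisense genes that overlap a protein-coding gene but begin outside it, and 143 had no protein-coding gene on the opposite strand. Together 1686 sites (76.3%) began inside 1323 host genes, and the median distance to the nearest protein-coding start was 25241 bp. The 300-bp window from 250 bp before the start was CpG-rich (GC of at least 50% and an observed-to-expected CpG ratio of at least 0.6) at 118 sites (5.34%), against 4.35% of intergenic lncRNA and 45.8% of protein-coding start sites. These start sites were thus mostly intronic and CpG-poor.

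The windows of 7 genes are shown because they span the kinds of start described here, with every CG dinucleotide in capitals, read 5' to 3' on the antisense gene's strand from GRCm38.p6. Gm15551, the gene the study followed, starts in an intron of Camk2d (chr3:126668995-126669294, minus strand). Snhg7os (chr2:26640122-26640421, plus strand) is a CpG-rich start with H3K4me3 in every mouse, and Gm36388 (chr1:187651775-187652074, minus strand) is another in an intron of Esrrg. Gm49173 (chr15:95804352-95804651, minus strand) in an intron of Ano6 and Hectd2os (chr19:36689430-36689729, minus strand), which overlaps Hectd2, carried H3K27ac and no H3K4me3. Plxna4os1 (chr6:32510823-32511122, plus strand) in an intron of Plxna4 had H3K27ac only in cold mice, and Vax2os (chr6:83703494-83703793, minus strand) had H3K27me3.
Snhg7os: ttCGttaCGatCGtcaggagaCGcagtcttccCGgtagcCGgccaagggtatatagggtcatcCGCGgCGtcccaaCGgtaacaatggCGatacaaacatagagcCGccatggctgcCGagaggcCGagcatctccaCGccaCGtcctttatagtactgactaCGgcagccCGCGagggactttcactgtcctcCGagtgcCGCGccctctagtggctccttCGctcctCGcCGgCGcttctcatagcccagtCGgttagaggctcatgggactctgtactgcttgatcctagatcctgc
Gm36388: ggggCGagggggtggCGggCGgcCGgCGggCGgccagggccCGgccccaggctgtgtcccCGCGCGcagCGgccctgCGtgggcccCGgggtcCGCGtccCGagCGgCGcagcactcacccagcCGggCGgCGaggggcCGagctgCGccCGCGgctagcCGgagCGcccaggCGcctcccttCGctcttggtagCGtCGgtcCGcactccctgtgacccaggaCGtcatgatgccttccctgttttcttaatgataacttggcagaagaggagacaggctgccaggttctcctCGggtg
Vax2os: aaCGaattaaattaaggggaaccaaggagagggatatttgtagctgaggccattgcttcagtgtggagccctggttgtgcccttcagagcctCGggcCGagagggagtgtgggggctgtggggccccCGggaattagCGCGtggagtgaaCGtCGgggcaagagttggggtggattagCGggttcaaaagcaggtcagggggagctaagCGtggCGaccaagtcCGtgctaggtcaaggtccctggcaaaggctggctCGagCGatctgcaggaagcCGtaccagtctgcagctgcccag
Gm15551: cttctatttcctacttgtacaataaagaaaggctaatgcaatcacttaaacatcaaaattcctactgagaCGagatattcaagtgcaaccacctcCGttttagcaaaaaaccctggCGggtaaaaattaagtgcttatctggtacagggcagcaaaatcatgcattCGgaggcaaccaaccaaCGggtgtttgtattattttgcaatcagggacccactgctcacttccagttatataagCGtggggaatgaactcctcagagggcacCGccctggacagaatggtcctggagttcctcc
Gm49173: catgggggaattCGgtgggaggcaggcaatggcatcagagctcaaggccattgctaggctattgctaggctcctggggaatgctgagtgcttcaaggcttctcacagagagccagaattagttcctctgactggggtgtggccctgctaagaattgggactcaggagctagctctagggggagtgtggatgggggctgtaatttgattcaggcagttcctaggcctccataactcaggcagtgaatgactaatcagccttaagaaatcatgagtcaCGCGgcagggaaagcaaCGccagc
Plxna4os1: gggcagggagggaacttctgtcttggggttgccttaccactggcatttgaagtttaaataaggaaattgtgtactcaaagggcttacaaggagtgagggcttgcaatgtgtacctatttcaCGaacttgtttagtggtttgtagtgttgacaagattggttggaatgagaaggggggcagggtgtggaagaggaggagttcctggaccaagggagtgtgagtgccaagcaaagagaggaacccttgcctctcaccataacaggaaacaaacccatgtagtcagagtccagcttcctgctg
Hectd2os: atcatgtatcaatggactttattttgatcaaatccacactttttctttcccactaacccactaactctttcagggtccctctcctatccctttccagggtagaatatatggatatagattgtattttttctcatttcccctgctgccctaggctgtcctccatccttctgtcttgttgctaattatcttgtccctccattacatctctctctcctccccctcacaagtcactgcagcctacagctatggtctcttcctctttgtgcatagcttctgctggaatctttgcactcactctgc

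The windows held 27 CG dinucleotides in Snhg7os, 34 in Gm36388, 15 in Vax2os, 7 in Gm15551, 4 in Gm49173, 1 in Plxna4os1 and 0 in Hectd2os. The study's guide RNAs for switching on Gm15551 target the same window. Guides Gm15551-2 (chr3:126669053-126669072, minus strand) and Gm15551-3 (chr3:126669052-126669071, minus strand) overlap each other just before the start, and guide Gm15551-7 (chr3:126669181-126669200, plus strand) lies farther upstream. Capitals mark the 3 bases next to each target on the genome, the PAM.
Gm15551-2: cacttccagttatataagcgTGG
Gm15551-3: acttccagttatataagcgtGGG
Gm15551-7: agggttttttgctaaaacggAGG

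The lists differed widely in length, from 13517 to 24104 peaks for H3K4me3, 3224 to 40604 for H3K27ac, 12 to 27568 for H3K4me1 and 20 to 6428 for H3K27me3. Mouse 7 had the shortest H3K4me3 and H3K27ac lists, and mice 7 and 10 had 12 and 18 H3K4me1 peaks. The tissue label was checked on the protein-coding start sites of marker genes. Of 7 brown adipocyte markers, 4 (Ucp1, Cidea, Dio2 and Pparg) had H3K4me3 in all 8 mice and the others in 3 to 7. Of 3 hepatocyte markers none had H3K4me3 or H3K27ac in any mouse. H3K4me3 was in 0 to 2 mice at macrophage, 0 to 3 at neuron and 4 to 7 at endothelial markers. At the 6 skeletal muscle markers it was in 0 to 8, with Mylpf at 8, Acta1 at 4 and Ckm at 0. H3K27ac was in 3 to 8 mice at the brown adipocyte markers and 6 to 7 at the endothelial markers. It was in 0 to 5 mice at the skeletal muscle, 0 to 1 at the macrophage and 0 at the neuron markers.

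H3K4me3 was present at 7.42% ± 1.97 of the antisense start sites (SD, n = 8 mice). By mouse the share was 7.37% (mouse 1), 8.64% (mouse 2), 8.73% (mouse 4), 9.72% (mouse 5), 3.48% (mouse 7), 7.06% (mouse 8), 5.97% (mouse 10) and 8.41% (mouse 11). Mouse 7, with the shortest list, was lowest, and mouse 10, with the list of next length, was second lowest. H3K27ac was present at 6.69% ± 2.75, from 1.36% in mouse 7 to 9.91% in mouse 11, again the mice with the shortest and longest lists. H3K4me1 was found at 3.03% ± 2.90, from 7.01% in mouse 5 to 0 of 2211 sites in mice 7 and 10 (exact 95% binomial upper limit 0.167%). The H3K4me1 lists of mice 7 and 10 held 12 and 18 peaks in all. This limit therefore bounds called peaks and not the mark itself. H3K27me3 was found at 0.322% ± 0.734, from 0% in mice 1, 7 and 10 to 2.13% in mouse 5, which had by far the longest list of this mark. For each mark the shortest lists gave the lowest shares, and the part of list length in the differences between mice was not tested. In bulk tissue, fewer cells with a mark and less of it per cell cannot be told apart. The exact 95% binomial interval ran from 6.32% to 8.54% for the H3K4me3 share of mouse 1, and such intervals and limits cover counting error only.

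**Figure D1:**
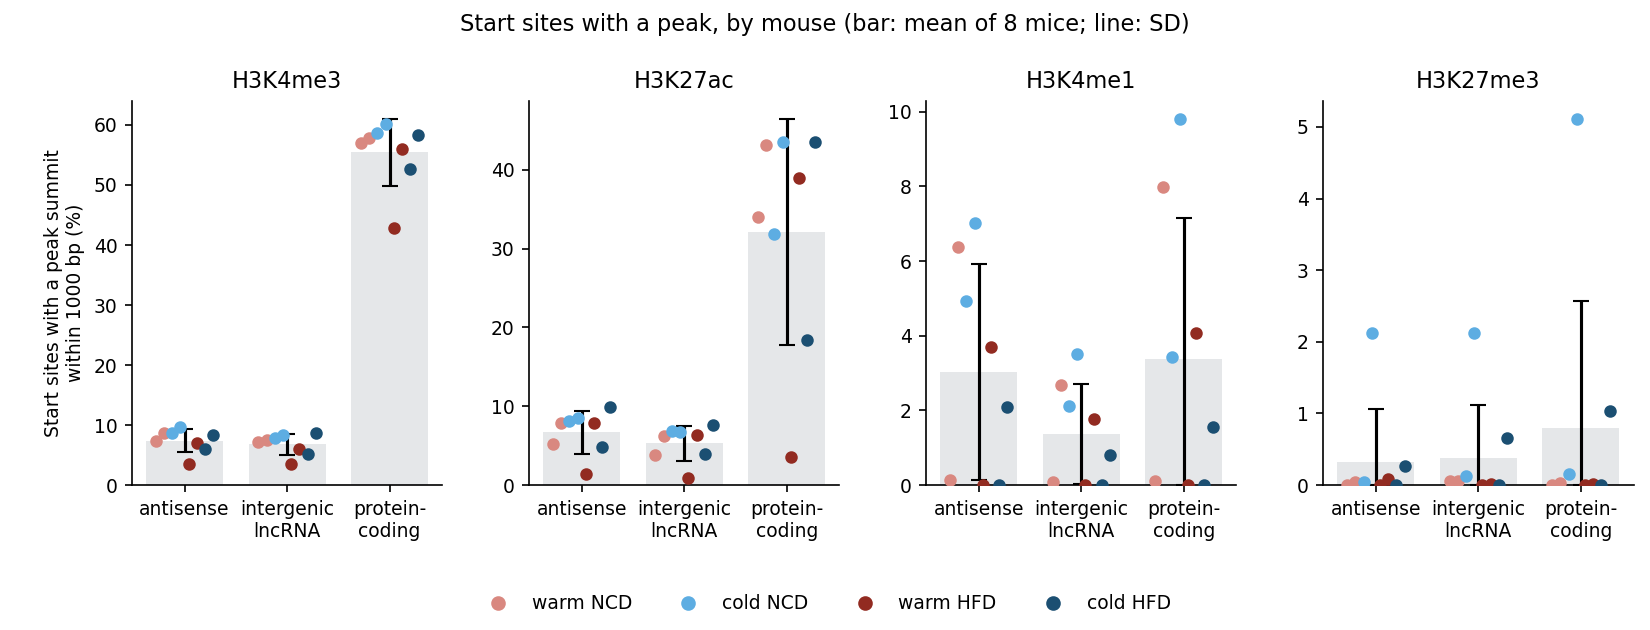
Percent of start sites with a peak summit within 1000 bp, by mouse (points), with the mean (bar) and SD (line, cut at 0) over 8 mice, for antisense, intergenic lncRNA and protein-coding start sites; each mark has its own axis. H3K4me3 and H3K27ac lie far lower at antisense than at protein-coding starts, and H3K27ac at antisense starts is above intergenic lncRNA starts in every mouse.

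Marks were compared at these sites by permuting 8 libraries of a mark with 8 of another (exact, two-sided). H3K4me3 was more frequent than H3K4me1 by 4.39 points (exact adjusted p = 0.0106), H3K27ac more than H3K4me1 by 3.66 points (adjusted p = 0.0332) and H3K27ac more than H3K27me3 by 6.37 points (adjusted p = 0.00124), each higher in 8 of 8 mice. The H3K27me3 lists of mice 1, 2, 4, 7, 8 and 10 held 20 to 309 peaks in all, so few sites could carry one. The difference from H3K27me3 therefore describes called peaks and not the mark itself. These lists were too short to be held to 3000 peaks. H3K4me3 and H3K27ac differed by 0.73 points (exact adjusted p = 0.561), which the spread between mice covers. The order of the marks changed with the peaks kept. When each list was held to its 3000 peaks of highest significance, H3K4me3 at antisense sites lay below H3K27ac by 1.02 points (difference -1.02, exact adjusted p = 0.000466). It also lay below H3K4me1 (difference -0.57, exact adjusted p = 0.00816). That comparison set 8 H3K4me3 lists against the 5 H3K4me1 lists with enough peaks, so the mice were not the same on both sides.

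Against protein-coding start sites, the antisense sites carried H3K4me3 far less often, 7.42% ± 1.97 against 55.4% ± 5.53, and H3K27ac less often, 6.69% ± 2.75 against 32.1% ± 14.3. Both differences held in 8 of 8 mice (exact sign-flip permutation test over mice, adjusted p = 0.0208, from the smallest p that 256 sign flips give, 0.00781). For H3K4me1 the shares were 3.03% ± 2.90 and 3.37% ± 3.78, higher at antisense sites in 3 mice and lower in 3 (difference -0.34 ± 1.31 points, SD, exact adjusted p = 0.562). A gap between the classes was thus seen for H3K4me3 and H3K27ac, and none was detectable for H3K4me1 in this window. With a 500-bp window the H3K4me1 difference became 0.93 points in favour of antisense sites (exact adjusted p = 0.0417).

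Against intergenic lncRNA start sites, H3K27ac was higher at antisense sites in 8 of 8 mice, by 1.38 ± 0.547 points (6.69% against 5.31%, adjusted p = 0.0208, exact permutation test). H3K4me3 was higher by 0.63 points over the 8 mice, and in 6 of them (7.42% against 6.79%, exact adjusted p = 0.075). H3K4me1 was higher by 1.66 points over all 8 mice (3.03% against 1.37%, exact adjusted p = 0.0625). It was higher in each of the 6 mice with such peaks at these sites. Neither passed the threshold. The H3K27ac difference was 1.62 points without mice 7 and 10 (exact adjusted p = 0.0625, where the smallest p that 6 mice allow is 0.0312). H3K27me3 did not separate the classes (0.322% against 0.379%, exact adjusted p = 0.357). With 3000 peaks per list the H3K4me3 difference turned to -0.30 points (exact adjusted p = 0.0117).

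A second background, chosen after the data were seen, was the bases of protein-coding gene bodies, exons and introns together. It was not matched for CpG content or for distance to a coding start beyond the 2000 bp limit. Of all bases inside protein-coding gene bodies and more than 2000 bp from a coding start, 0.629% ± 0.292 lay within 1000 bp of an H3K4me3 summit. At the 1686 antisense starts inside a host the share was 6.45% ± 2.07, a ratio of 10.3, higher in 8 of 8 mice (adjusted p = 0.0156, exact sign-flip permutation test). For H3K27ac the values were 6.04% ± 2.76 at the starts and 1.74% ± 0.975 of the bases, a ratio of 3.46 in 8 of 8 mice (exact adjusted p = 0.0156). For H3K4me1 they were 3.49% ± 3.35 and 1.34% ± 1.22, a ratio of 2.60 (exact adjusted p = 0.0357, higher in 6 mice). Antisense starts were thus marked more often than gene-body bases at large, with the highest ratio of these 3 for H3K4me3. For H3K27me3 the ratio was 5.37 (exact adjusted p = 0.0625). Intergenic lncRNA starts, set against bases outside gene bodies, gave higher ratios of 15.9, 7.19 and 4.60 for H3K4me3, H3K27ac and H3K4me1, and the difference between the classes was not tested.

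The summits also peaked at the annotated base. Among the 1854 antisense sites more than 6000 bp from a coding start, H3K4me3 summits were most frequent from 0 to 250 bp downstream, at 21.6 summits per 1000 sites and mouse. The mean per 250-bp bin was 7.96 within 1000 bp and 1.74 at 3000 to 5000 bp, a ratio of 4.58. For H3K27ac these means were in a ratio of 1.99, from 8.34 within 1000 bp, and for H3K4me1 in a ratio of 1.57, from 3.84 to 2.45. Of these 3 marks H3K4me3 had the highest ratio. At intergenic lncRNA starts the ratios were 6.75 for H3K4me3 and 2.82 for H3K27ac, above those at antisense starts.

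**Figure D2:**
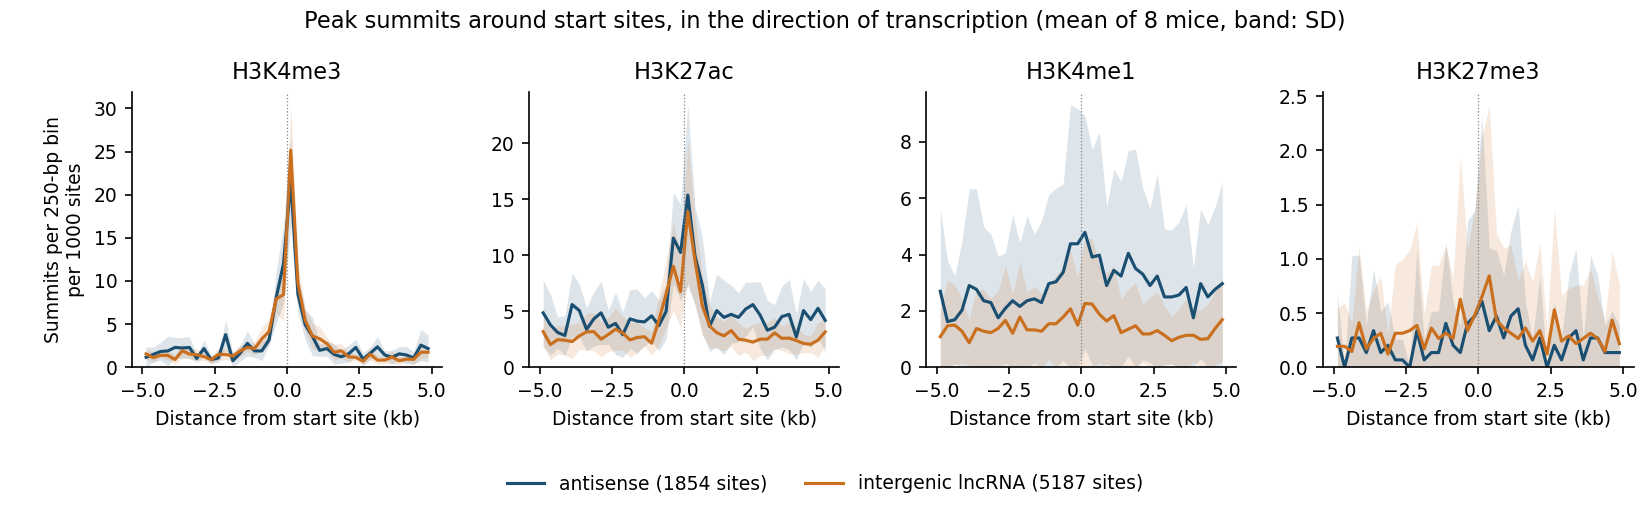
Peak summits per 250-bp bin and 1000 sites against the distance from the start site in the direction of transcription (mean of 8 mice, band: SD, cut at 0), for antisense and intergenic lncRNA sites more than 6000 bp from a protein-coding start. H3K4me3 rises to 21.6 summits in the first bin after antisense starts, and H3K27ac to 15.4, against 25.2 and 13.9 at intergenic lncRNA starts; the H3K4me1 curve of antisense sites lies above that of intergenic lncRNA sites across the plot.

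Peaks of H3K4me3 at antisense starts were smaller than those at coding starts. Their median width was 682 ± 79.7 bp against 1247 ± 317 bp at coding starts (8 of 8 mice, adjusted p = 0.0417, exact sign-flip permutation test), and 728 ± 97.2 bp at intergenic lncRNA starts (adjusted p = 0.359). Their median fold enrichment stood at the 40.0 ± 9.26 percentile of its list, against 63.5 ± 7.49 at coding starts and 44.8 ± 8.31 at intergenic lncRNA starts (exact adjusted p = 0.0417 for both, in 7 of 8 mice). H3K27ac peaks at antisense and coding starts had median widths of 599.5 ± 103 and 595 ± 140 bp (exact adjusted p = 0.828), and fold percentiles of 57.6 and 56.3 (adjusted p = 0.828). Among the 3000 most significant H3K4me3 peaks of each list, those at antisense starts were wider than those at coding starts by 399 bp (exact adjusted p = 0.0417), so the direction changed with the peaks kept, and the cause was not tested. Without any single mouse the H3K4me3 differences in width from coding starts and in percentile from both classes kept their sign, with exact adjusted p from 0.0625 to 0.0833. The percentile difference from lncRNA starts (-4.83) was also not past the threshold at -2.36 with any base counted (exact adjusted p = 0.225) and at -2.19 without sites near other coding starts (adjusted p = 0.562), and was 0.64 with 3000 peaks (adjusted p = 0.656). Peaks that also came within 1000 bp of a coding start made up 1.94% ± 0.702 of the H3K4me3 peaks at antisense starts.

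Marks often met at the same site. Of H3K4me3-marked antisense sites, 44.6% ± 9.65 also had H3K27ac in the same mouse, from 24.7% in mouse 7 to 55.9% in mouse 11, and 8.68% ± 8.47 had H3K4me1. At coding starts these shares were 53.6% ± 22.6 and 4.91% ± 5.55 (adjusted p = 0.177 and 0.125, exact permutation tests). Conversely 53.0% ± 5.99 of H3K27ac-marked antisense sites had H3K4me3. Counting any mouse, 100 sites had H3K4me3 and H3K27ac only, 79 had these with H3K4me1, 74 had H3K27ac and H3K4me1 without H3K4me3, 69 had H3K4me3 alone and 25 had H3K27me3 alone. In all, 1715 sites (77.6%) had no peak of any mark in any mouse.

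H3K4me3 tended to be either recurrent or found in a single mouse. Of the 287 sites with H3K4me3 in at least 1 mouse, 68 had it in 1 mouse, 48 in 7 and 55, from 42 genes, in all 8. Leaving out mice 7 and 10, 111 sites had it in every remaining mouse. H3K27ac reached 297 sites, 26 of them in all 8 mice and 70 in every mouse other than 7 and 10. H3K4me1 reached 241 sites, 0 of them in all 8 mice and 1 in 6, and H3K27me3 reached 48, of which 41 were marked in 1 mouse. The short H3K4me1 and H3K27me3 lists limit these last counts.

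**Figure D3:**
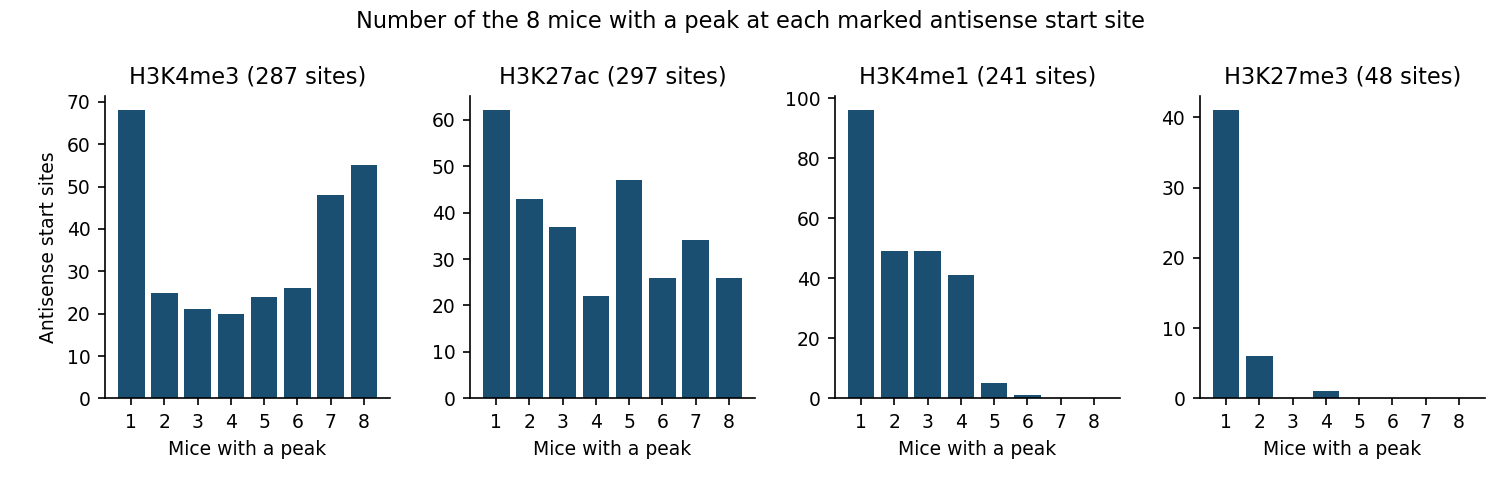
Number of antisense start sites (vertical axis) by the number of the 8 mice with a peak there (horizontal axis), for the 287, 297, 241 and 48 sites marked in at least 1 mouse. H3K4me3 has a second maximum at 7 and 8 mice, and H3K27me3 is almost all at 1 mouse.

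Of the 3 properties compared, CpG content gave the largest differences in points for H3K4me3 and H3K27ac, though not for H3K4me1. H3K4me3 was present at 42.2% ± 11.0 of the 118 CpG-rich sites and 5.46% ± 1.48 of the 2093 others, and H3K27ac at 18.8% ± 6.89 and 6.01% ± 2.54 (both in 8 of 8 mice, adjusted p = 0.0188, exact sign-flip permutation test). H3K4me1 went the other way without passing the threshold, 2.12% ± 2.08 against 3.08% ± 2.95 (exact adjusted p = 0.141). The CpG difference was as large more than 5000 bp from a coding start, a comparison chosen after the data were seen. H3K4me3 was there at 40.9% of 89 CpG-rich and 4.48% of 1833 other sites (exact adjusted p = 0.0146). CpG-rich coding starts carried H3K4me3 at 89.1% ± 7.27, and CpG-rich antisense starts lay below them. Of the 55 sites with H3K4me3 in all 8 mice, 22 (40%) were CpG-rich, and 0 of the 37 sites with H3K27ac in at least 4 mice and H3K4me3 in none were, beside 2.08% of all sites without H3K4me3.

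Short motifs were counted in the same windows. The letters GGGCGG, the core of the SP1 motif, occurred on either strand in 41.8% of the windows with H3K4me3 in 8 mice, 8.42% of those with it in none and 11.3% of all antisense windows, against 45.9% of protein-coding windows. TATAAA, the TATA box, occurred in 3.64%, 8.26% and 7.87% of the same antisense sets, and CCGGAAG, found in ETS motifs, in 9.09%, 2.65% and 2.99%. GGGCGG overlaps with CpG content by its own letters. These matches are descriptions of the windows.

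Sites nearer a coding start carried H3K4me3 and H3K27ac more often. H3K4me3 was present at 15.8% ± 3.79 of the 289 sites 2000 to 5000 bp away and 6.17% ± 1.74 of the 1922 sites farther off, and H3K27ac at 11.8% ± 3.99 and 5.92% ± 2.58 (both 8 of 8 mice, adjusted p = 0.0188, exact permutation test). The difference remained in windows that were not CpG-rich, 12.4% against 4.48% for H3K4me3 (exact adjusted p = 0.0146, chosen after the data were seen). Just inside the distance limit, the 122 sites at 2000 to 3000 bp had H3K4me3 at 14.3% ± 3.92. Just outside it, the 203 sites at 1000 to 2000 bp had it at 27.5% ± 3.97. Other catalogues add coding starts. Of all sites, 372 (16.8%) lay within 2000 bp of the start of a protein-coding gene's transcript in the comprehensive GENCODE set or of a RefSeq mRNA start, 11 of them among the 55 sites with H3K4me3 in all mice. Without these 372, 209 sites had H3K4me3 in at least 1 mouse and 44 in all 8, and the antisense excess of H3K27ac over intergenic lncRNA was 1.18 points (exact adjusted p = 0.0208).

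H3K27ac at an antisense start went with H3K27ac at the host's own promoter. Where a start of the host carried H3K27ac in the same mouse, 11.1% ± 2.03 of the antisense starts inside it did as well, against 3.39% ± 1.68 where it did not (8 of 8 mice, adjusted p = 0.0188, exact permutation test). More than 5000 bp from a coding start the values were 8.41% ± 3.37 and 3.31% ± 1.54 (exact adjusted p = 0.0146, chosen after the data were seen). For H3K4me3 they were 6.40% ± 1.82 and 6.85% ± 2.58 (exact adjusted p = 0.469), and 2.08 points in favour of marked hosts (adjusted p = 0.0156) when any base of a peak could count. For H3K4me1 they were 14.5% ± 8.00 and 3.97% ± 2.59 over the 6 mice with marked hosts, higher in 5 (exact adjusted p = 0.107).

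**Figure D4:**
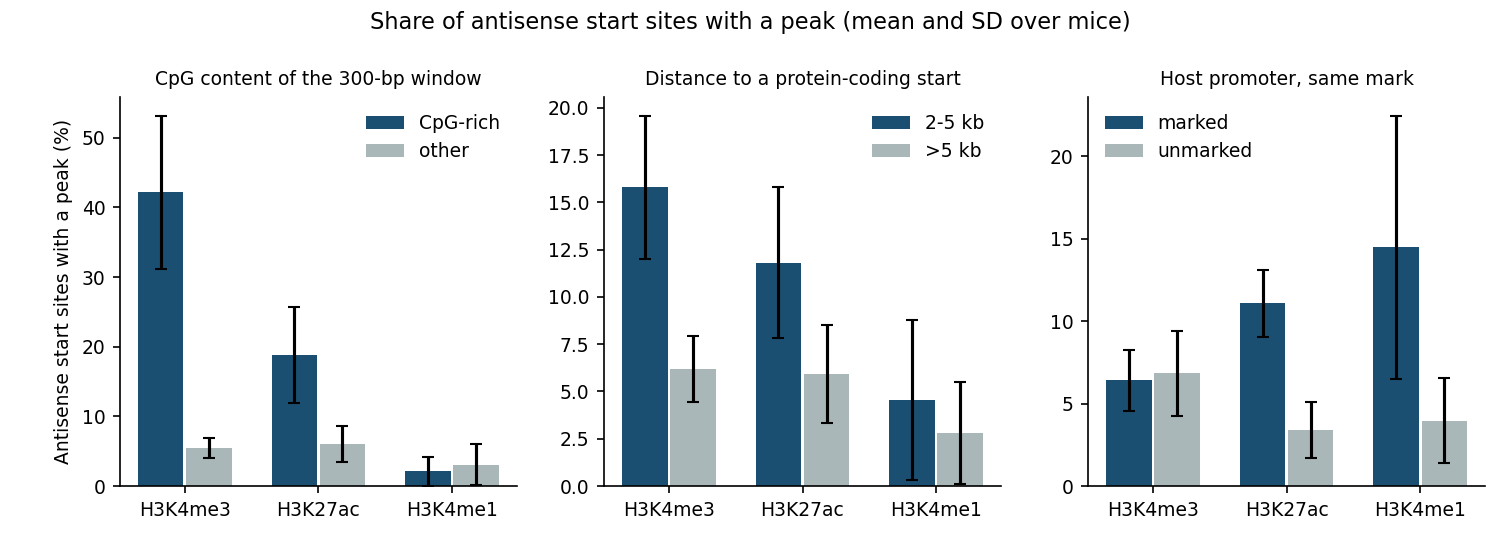
Percent of antisense start sites with a peak (mean and SD over mice), split by CpG content of the window, by distance to a protein-coding start and by whether a start of the host gene carried the same mark. CpG-rich sites show H3K4me3 at 42.2% against 5.46%, and sites in hosts with an acetylated promoter show H3K27ac at 11.1% against 3.39%.

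By place, H3K4me3 was found at 11.0% ± 1.74 of the 382 starts outside the gene they overlap, 12.2% ± 5.40 of the 164 starts in coding exons, 9.27% ± 1.82 of the 143 with no opposite-strand gene, 5.88% ± 1.68 of the 1392 intronic starts and 5.39% ± 2.49 of the 123 in a 3' UTR. Coding-exon windows were CpG-rich at 37 of 164 sites. Starts outside the host exceeded intronic starts by 5.15 points for H3K4me3 and 2.54 points for H3K27ac (8 of 8 mice each, adjusted p = 0.0146, exact permutation test, chosen after the data were seen). In windows that were not CpG-rich the differences were 2.50 points and 0.87 points (exact adjusted p = 0.0146 and 0.0469). H3K4me1 was at 1.77% ± 1.75 of the starts outside and 3.65% ± 3.48 of the intronic starts, which did not pass the threshold (exact adjusted p = 0.0721).

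The genes with H3K4me3 in every mouse and the highest significance within their lists were Frmd8os, Snhg7os, Fbxl12os, Trmt61b (the name the annotation gives to an antisense gene opposite Spdya), 4930481A15Rik, Gm13274, Gm16897, 1700113A16Rik, AC131712.1 and Gm17276. Snhg7os (ENSMUSG00000086775.7, chr2:26640372-26645944, plus strand) is named as the opposite-strand gene of Snhg7, a host of small nucleolar RNAs, and begins 1051 bp from the snoRNA gene Snora17. Its H3K4me3 fold enrichment, a ratio of ChIP to background signal, was 43.3 (mouse 1), 46.4 (mouse 2), 69.8 (mouse 4), 94.2 (mouse 5), 17.1 (mouse 7), 23.2 (mouse 8), 26.9 (mouse 10) and 46.8 (mouse 11). Within their lists these peaks ranked at the 83.9 to 98.8 percentile of fold, high in every mouse, and were 1686 to 2878 bp wide. H3K27ac was there in all 8 mice at 5.65 to 15.3 fold, lowest in mouse 7.

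Frmd8os (chr19:5845623-5851388, plus strand) had the broadest domain, with H3K4me3 peaks of 3699 to 10921 bp and H3K27ac peaks of 2446 to 16935 bp, and its start lay 145 bp from that of Neat1, an abundant lncRNA that builds nuclear paraspeckles. The marks there cannot be told apart from those of Neat1. Gm16897 is antisense to Cd34, a surface protein of progenitor and endothelial cells, and its start had H3K4me3 at a median fold of 29.1 (4.61 to 107) in 8 mice and H3K27ac in 7. 1700113A16Rik overlaps Mef2d, a MADS-box transcription factor, with H3K4me3 at a median fold of 30.0 and H3K27ac in 8 mice at the 98.1 percentile (median). Gm17276 overlaps Notch3, a receptor of vascular mural cells, with H3K27ac in 7 mice. Gm13274 started 265 bp from a RefSeq mRNA start and from the pseudogene Gm13286, Fbxl12os 135 bp from the unclassified gene Gm48069 and Gm16897 585 bp from the noncoding gene A330023F24Rik.

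Of the 10 genes, H3K27ac accompanied H3K4me3 in 7 or 8 mice at 9. The exception was AC131712.1 in an intron of Cdkl4, with H3K27ac in 4 mice. H3K4me1 was seen in 1 mouse each at 4930481A15Rik and Gm16897 and in none at the others. Over all sites, counting marks present in at least 4 mice, 87 had H3K4me3 alone and 78 had it with H3K27ac only. A further 7 had it with both H3K27ac and H3K4me1.

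**Figure D5:**
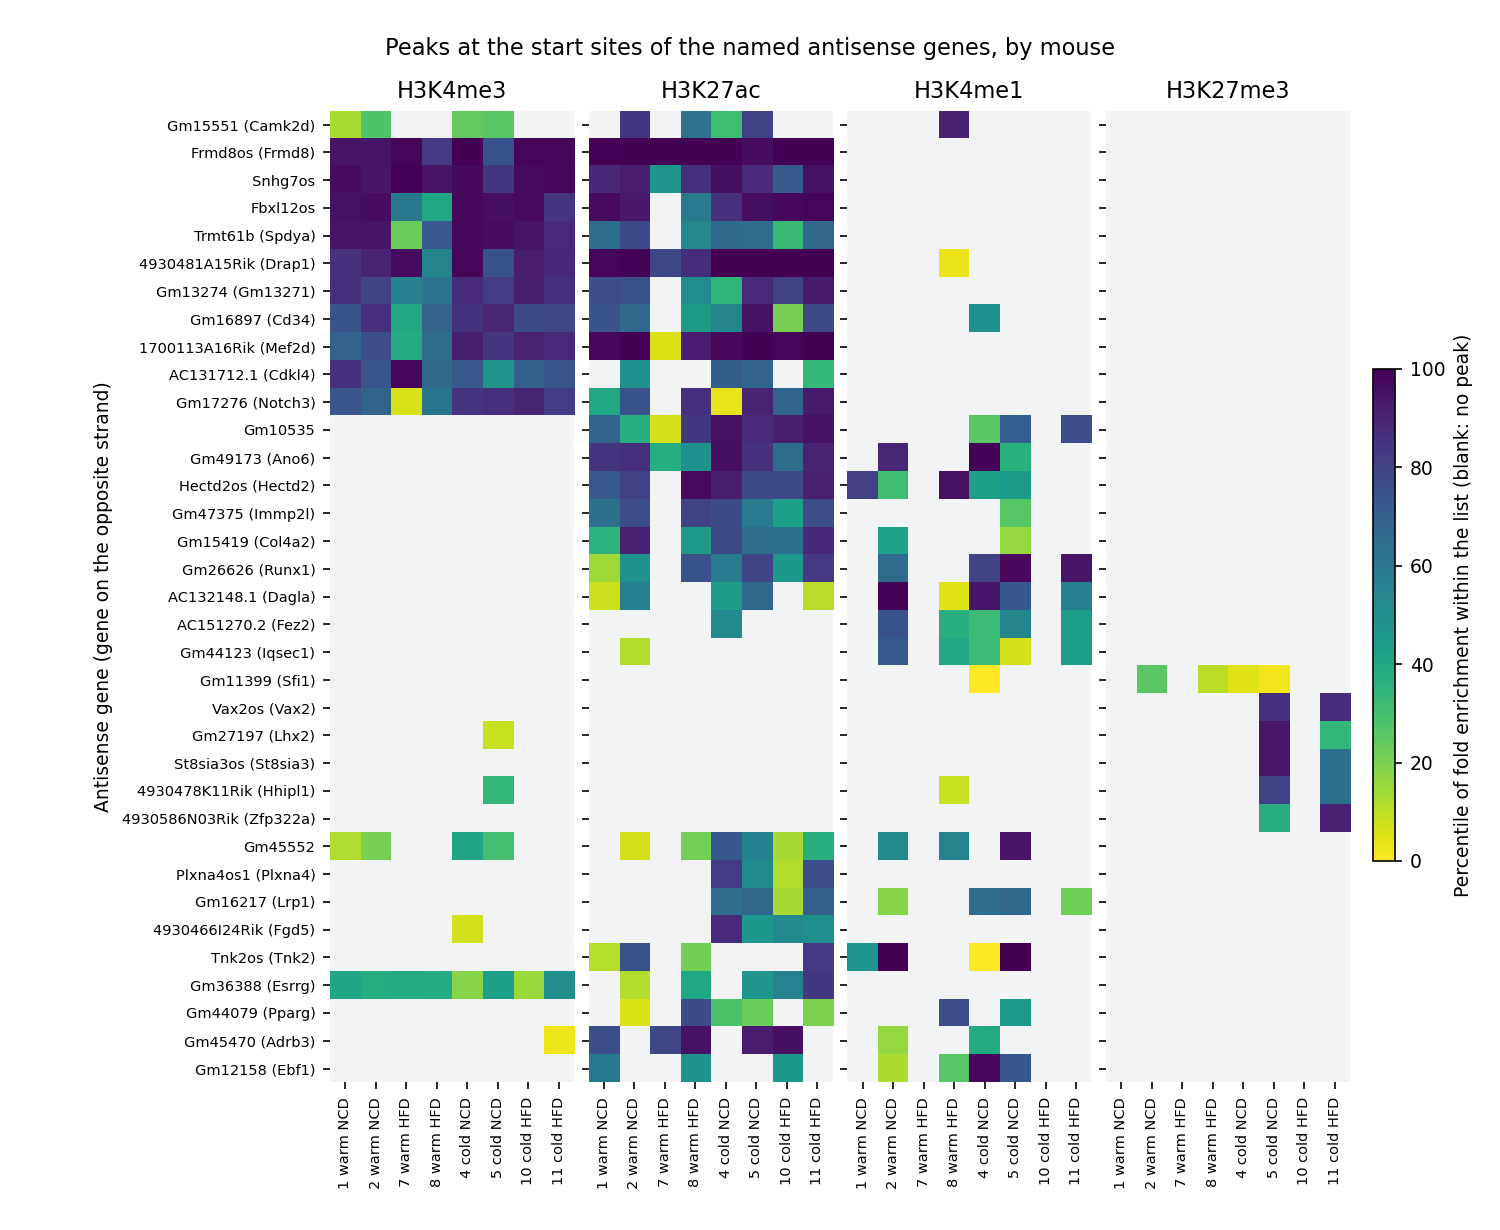
Peaks at the start site of each named antisense gene (rows, with the gene on the opposite strand in brackets where given) in each mouse (columns) for the 4 marks; colour gives the percentile of the peak's fold enrichment within its own list, from 0 to 100, and blank cells have no peak. The top row is Gm15551, with H3K4me3 in 4 mice and H3K27ac in 4. The rows from Frmd8os to Gm17276 carry H3K4me3 in every mouse. H3K27ac is there in 7 or 8 mice, except at AC131712.1 with 4. The next block carries H3K27ac or H3K4me1 without H3K4me3.

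A separate group of starts had H3K27ac and no H3K4me3 in any mouse: Gm10535 and Gm49173 in 8 mice, and Hectd2os, Gm47375, Gm15419 and Gm26626 in 7. Gm49173 (chr15:95802033-95804401, minus strand) starts in an intron of Ano6, a calcium-activated lipid scramblase. Its H3K27ac fold was 9.47 (mouse 1), 12.7 (mouse 2), 14.3 (mouse 4), 12.6 (mouse 5), 5.33 (mouse 7), 4.79 (mouse 8), 6.07 (mouse 10) and 11.1 (mouse 11). The peak was thus called in warm and cold mice and on both diets, with H3K4me1 in mice 2, 4 and 5. Gm26626 starts in an intron of Runx1, a transcription factor of blood formation, and had H3K4me1 in 4 mice. At Hectd2os, with no CG in its window, the H3K27ac fold was 7.58 (mouse 1), 11.2 (mouse 2), 11.4 (mouse 4), 10.3 (mouse 5), 13.0 (mouse 8), 7.05 (mouse 10) and 11.5 (mouse 11), and H3K4me1 was called in 5 mice. Gm15419 lies in Col4a2, a basement membrane collagen, and Gm47375 in Immp2l, a mitochondrial inner membrane peptidase. The mouse missing at the 4 genes marked in 7 was mouse 7 each time, whose H3K27ac list held 3224 peaks.

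H3K4me1 without H3K4me3 was most recurrent at AC132148.1 in Dagla, Hectd2os, AC151270.2 in Fez2 and Gm44123 in Iqsec1, each in 5 mice. Dagla encodes an enzyme that makes the endocannabinoid 2-arachidonoylglycerol. At AC132148.1 the H3K4me1 fold was 8.57 (mouse 2), 6.74 (mouse 4), 5.79 (mouse 5), 3.03 (mouse 8) and 5.08 (mouse 11), and H3K27ac was present in 5 mice. AC151270.2 and Gm44123 had H3K27ac in 1 mouse each. Of the 55 sites with H3K4me1 in at least 3 mice and no H3K4me3, 92.7% lay inside a host and 0 were CpG-rich.

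H3K27me3 was rare and mostly in mouse 5, whose list was the longest. Gm11399 in Sfi1 had it in mice 2, 4, 5 and 8 at folds of 2.58 to 4.50, at or below the 25.6 percentile of fold in those lists but at a median 65.7 percentile of −log10 q, and its start lay 330 bp from a coding start of the comprehensive set. Vax2os, opposite the eye and forebrain homeobox gene Vax2, Gm27197 in the LIM homeobox gene Lhx2, 4930478K11Rik, 4930586N03Rik and St8sia3os had it in mice 5 and 11. At Vax2os the fold was 6.61 (mouse 5) and 5.76 (mouse 11), at the 86.2 and 87.4 percentile of fold, and a small RNA gene, Gm27631, begins 25 bp away. Of the 48 sites marked in any mouse, 19 (39.6%) were CpG-rich.

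Hosts on a list of 59 adipose genes, Camk2d included, had 16 antisense start sites in 10 hosts. In at least 4 mice, 2 of these sites had H3K4me3 (12.5%, against 7.82% of all antisense sites) and 4 had H3K27ac (25%, against 7.01%). H3K4me1 was in at least 4 mice at 1 site (6.25%, against 2.13%). These counts rest on few sites and were not tested. Gm15551, the gene the study followed, is 1 of the 2 sites with H3K4me3 and 1 of the 4 with H3K27ac. Gm36388 (ENSMUSG00000103961.1, chr1:187616852-187651824, minus strand) starts in an intron of Esrrg, a nuclear receptor of oxidative metabolism, and had H3K4me3 in every mouse. Its fold was 12.3 (mouse 1), 9.71 (mouse 2), 5.56 (mouse 4), 19.8 (mouse 5), 4.56 (mouse 7), 6.98 (mouse 8), 4.41 (mouse 10) and 11.8 (mouse 11), at the 15.0 to 50.0 percentile of fold. The peak was therefore recurrent but of middling rank. This start lies 46 bp from a RefSeq mRNA start, 42795 bp from the nearest coding start in the basic set, so host and antisense promoter cannot be told apart here.

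Gm44079 starts in an intron of Pparg, the master regulator of fat cell formation, with H3K27ac in mice 2, 4, 5, 8 and 11 (fold 3.77 to 6.85), H3K4me1 in 2 mice and no H3K4me3. Gm45470 starts in an intron of Adrb3, the beta-3 adrenergic receptor through which cold activates brown fat. Its H3K27ac fold was 8.08 (mouse 1), 15.5 (mouse 5), 7.12 (mouse 7), 11.6 (mouse 8) and 11.3 (mouse 10), in warm and cold mice. The start lay 2790 bp from a coding start of the basic set and 1554 bp from one of the comprehensive set. Gm12158 in Ebf1, a fat cell transcription factor, had H3K4me1 in mice 2, 4, 5 and 8 and H3K27ac in mice 1, 8 and 10. H3K27me3 was called at 0 of the 16 sites, beside 2.17% of all antisense sites.

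Developmental transcription factor families (Hox, Pax, Sox and the like) gave 23 hosts. Of their 37 antisense sites, 9 had H3K4me3 in at least 4 mice (24.3%, against 7.82% of all), 5 had H3K27ac (13.5%, against 7.01%), 0 had H3K4me1 and 11 had H3K27me3 in any mouse (29.7%, against 2.17% of all). These counts were not tested, and the H3K27me3 share per mouse was 4.05% ± 10.4. Of the 48 antisense sites with H3K27me3, 47 were marked in mouse 5, the mouse with the longest list. The 9 sites with H3K4me3 lay 2234 to 4897 bp from a coding start, except Gm12462 in Pax5 at 45993 bp. They include more than 1 site each of Hoxd3os1 and Gm16764. Over all antisense sites, H3K4me3 was at a mean 15.8% of the 289 sites near a coding start and 6.17% of the 1922 farther off. The part of this distance in the 24.3% was not tested. Chosen after their values were seen, Hoxaas3 and Gm15050 in the Hoxa cluster had H3K4me3 in 8 and 7 mice with H3K27ac in 5 and 6, and the starts of Hoxd3os1 had H3K4me3 in 4 mice and H3K27me3 in 1. Gm16764 in Nkx1-2 had H3K4me3 in 6 mice, no H3K27ac and H3K27me3 in 1.

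Temperature and diet were compared over 4 and 4 mice by a two-sided exact permutation test, which cannot give a p below 0.0286. A mark can reach that p for temperature or for diet but not for both. After adjustment over all marks and both factors, no such difference could therefore pass the threshold, whatever its size. The share of antisense sites with H3K4me3 was 8.21% ± 1.59 in cold and 6.64% ± 2.21 in warm mice (exact p = 0.343, adjusted p = 0.549) and 6.23% ± 2.09 on HFD and 8.62% ± 0.964 on NCD (difference -2.39 points, p = 0.0571, adjusted p = 0.457). For H3K27ac it was 7.84% ± 2.16 in cold and 5.55% ± 3.07 in warm mice (exact adjusted p = 0.549) and 5.97% ± 3.72 on HFD and 7.42% ± 1.53 on NCD (adjusted p = 0.686). For H3K4me1 it was 1.45% ± 1.80 on HFD and 4.61% ± 3.11 on NCD (exact adjusted p = 0.457) and 3.51% ± 3.09 in cold and 2.56% ± 3.07 in warm mice (adjusted p = 0.751). H3K27me3 was at 0.611% ± 1.02 in cold and 0.0339% ± 0.0433 in warm mice (exact adjusted p = 0.549) and at 0.0905% ± 0.128 on HFD and 0.554% ± 1.05 on NCD (adjusted p = 0.8). No difference by temperature or diet passed the threshold, and neither did the interaction of both for any mark (adjusted p = 0.857 for all 4, exact permutation over 2520 assignments). The lists of HFD mice 7 and 10 were short, and with 3000 peaks per list the HFD difference in H3K4me3 was 0.11 points (p = 0.6, exact permutation test).

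Single sites were called when all 4 mice of a group had a peak and none of the other group did. Of the 287 antisense sites with H3K4me3, 2 (0.697%) were called by diet, both on NCD, beside 0.31% of all annotated start sites with this mark, and 0 by temperature, beside 0.0783%. Of the 297 sites with H3K27ac, 3 (1.01%) were called by temperature, all cold, beside 0.12%, and 0 by diet, beside 0.175%. Of the 241 sites with H3K4me1, 1 (0.415%) was called by diet, on NCD, beside 0.102%, and 0 by temperature, beside 0%. Of the 48 sites with H3K27me3, 0 were called by diet, beside 0.14%, and 0 by temperature, beside 0%. The difference from these background shares was not tested, and when −log10 q had to reach 5 the count was 0 for each mark and factor.

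Gm15551 (ENSMUSG00000086679.2, chr3:126667329-126669044, minus strand), in an intron of the calcium/calmodulin kinase gene Camk2d, had H3K4me3 in the 4 NCD mice, with a fold of 5.36 (mouse 1), 6.94 (mouse 2), 6.44 (mouse 4) and 8.60 (mouse 5), and no peak in mice 7, 8, 10 and 11. The groups did not overlap, but the peaks stood at the 12.7 to 27.5 percentile of fold in their lists, 220 to 253 bp downstream of the start. H3K27ac was called in mice 2, 4, 5 and 8, at 12.0, 4.39, 11.1 and 5.48 fold, and H3K4me1 in mouse 8. A single site in 4 against 4 mice cannot pass an adjustment over all sites.

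Gm45552 was the other site with H3K4me3 on NCD alone, at folds of 5.23, 5.74, 9.66 and 10.0 in mice 1, 2, 4 and 5. It starts 160 bp from the start of Mir150 and 1611 bp from a coding start of the comprehensive set. H3K27ac was present there in 6 mice of both diets. Tnk2os, in an intron of the kinase gene Tnk2, had H3K4me1 on NCD alone at folds of 5.99, 9.05, 3.00 and 9.82 in mice 1, 2, 4 and 5, while H3K27ac was called in mice 1, 2, 8 and 11. Its start lay 43 bp from a coding start of the comprehensive set, so antisense and coding start cannot be told apart there. The H3K4me1 summits lay 778 to 840 bp downstream, at the 0.271 to 99.7 percentile of fold in their lists. HFD mice 7 and 10 had almost no H3K4me1 peaks anywhere.

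The 3 cold-only H3K27ac sites were all intronic. At Plxna4os1 in Plxna4, a semaphorin receptor of axon guidance, the fold was 8.56 (mouse 4), 6.95 (mouse 5), 4.08 (mouse 10) and 7.57 (mouse 11), while warm mice 1, 2, 7 and 8 lacked a peak, and the other 3 marks were not called there. At Gm16217 in Lrp1, an endocytic lipoprotein receptor, it was 6.14, 8.45, 4.11 and 6.58 in the same 4 mice. H3K4me1 was called there in cold mice 4, 5 and 11 and in warm mouse 2. At 4930466I24Rik in Fgd5, an endothelial exchange factor, it was 9.85, 6.49, 5.46 and 5.09. The H3K27ac summits lay 369 to 754 bp downstream of the start at Plxna4os1 and -187 to 619 bp from it at Gm16217. At 4930466I24Rik they lay 512 to 718 bp downstream, and no peak covered the start itself. The H3K27ac lists held 16889, 28433, 3224 and 33798 peaks in warm mice 1, 2, 7 and 8, and 30544, 30495, 14511 and 40604 in cold mice 4, 5, 10 and 11. The part of list length in these 3 calls was not tested.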

How the data were processed

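ChIP-seq peak lists of 4 marks in 8 mice were analysed, 1 list per mark and mouse. According to the methods, the authors filtered reads with cutadapt, aligned them to GRCm38 with Bowtie2 and called peaks with MACS2 against the corresponding input sample. The submitters' processing notes also name deepTools, with tool versions not given in the sources used here. Each of the deposited lists gives every peak's fold enrichment, a ratio to local background, and its −log10 p and −log10 q values, as the authors' peak caller wrote them (lowest −log10 q 1.30). They hold no read depth, which was not analysed here, so fold values were read within a list only.

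Start sites came from the GENCODE M21 basic annotation and sequences from GRCm38.p6. The members and lists were chosen with earlier results of these data known. A mark was counted where a summit lay within 1000 bp. Classes and site properties were compared within mice by two-sided exact sign-flip permutation tests, marks and conditions by two-sided exact permutation tests over libraries or mice, with Benjamini-Hochberg adjustment within each family and a threshold of 0.05. Mouse numbers identify the same animal across marks, so marks were also compared within mice, and this pairing comes from the labels. Counting was tested on simulated data (1658 sites in 8 lists, 0 wrong). The developmental host list was built from gene-name families, from which Tbxas1 was removed because it is an enzyme.

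Named genes were Gm15551, the 10 genes with H3K4me3 in most mice (ties by the percentile of −log10 q), the 6 with H3K27ac and the 4 with H3K4me1 in most mice among those without H3K4me3, the 6 with H3K27me3 in most mice, genes with a mark in all of a group and none of the other, and genes in adipose hosts with a mark in at least 4 mice. Alternatives were the overlap of any base, a 500-bp window, −log10 q of at least 5, 3000 peaks per list, a 5000-bp limit, genes as units, a ratio to coding starts, and leaving out mice. Python 3.11.15, numpy 2.4.6, pandas 2.3.3, scipy 1.17.1, pysam 0.24.0 and matplotlib 3.10.9 were used.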

Additional observations from a re-analysis of the deposited data

Results flagged for a closer look

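The share of antisense start sites with H3K27me3 in mouse 5 stood far from the others. It was 2.13%, against 0.271% in the next of the 8 mice and of the 4 cold mice, and 0.0452% in the next of the 4 NCD mice, and the list of mouse 5 was also the longest of this mark at 6428 peaks, against 1392 in the next. In all, 25 groups of mice were examined for such a sample and 3 showed one, all through this mouse, while chance gives about 1 in 20. The interaction of temperature and diet passed the threshold for 0 of 4 marks.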

How the results depend on the processing

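Of 776 values of 64 results under other settings, 692 kept their side of the threshold, or stayed within 1.5 times for counts, and of these 38 were differences that changed sign without passing the threshold in either setting. The differences by temperature, diet and their interaction passed the threshold under 0 of 199 alternatives (smallest adjusted p 0.229). For temperature and diet the number of mice did not allow a pass after adjustment, so this count does not measure their stability. The replicate block, which compares marks within mice, gave exact adjusted p of 0.0104 for the differences that had passed (4.39, 3.66 and 6.37 points) and 0.172 for H3K4me3 minus H3K27ac (0.73 points), so it changed no call. The cause of the changes below was not tested, except that fewer mice raise the smallest p.

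With 3000 peaks per list the differences turned to -0.30 points (H3K4me3, antisense minus intergenic lncRNA), -1.02 (H3K4me3 minus H3K27ac) and -0.57 (H3K4me3 minus H3K4me1). H3K4me3 width turned to 399 bp (against coding) and 460 bp (against lncRNA), its fold percentile to 1.98 and 0.641, and the H3K27ac width difference from coding passed at 837 bp. Counting any base of a peak, the H3K4me3 host promoter difference turned to 2.08 points, the H3K4me3 and H3K4me1 differences from lncRNA passed at 0.81 and 1.82 points, H3K27ac width passed at 95.6 bp, the fold percentile against lncRNA no longer passed (-2.36), and 1 site was called by diet for H3K4me3. With 500 bp the H3K4me1 difference from coding turned to 0.93, and the H3K4me3 and H3K4me1 differences from lncRNA passed at 0.71 and 1.03. With −log10 q of at least 5, the called sites fell to 0 (H3K4me3 diet, H3K27ac temperature, H3K4me1 diet), 34 sites had H3K4me3 and 13 H3K27ac in every mouse, and 71 had H3K4me1 and 16 H3K27me3 in any.

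With at least 3 of 4 mice against at most 1, called sites by temperature and diet numbered 9 and 21 (H3K4me3), 14 and 14 (H3K27ac) and 2 and 31 (H3K4me1). Without mice 7 and 10, 111, 70 and 1 sites had H3K4me3, H3K27ac and H3K4me1 in every mouse. As alternatives added after seeing the data, leaving out these mice gave -49.7 and -31.3 points (H3K4me3 and H3K27ac against coding) and 1.62 (H3K27ac against lncRNA) at adjusted p of 0.0625, and leaving out sites near comprehensive or RefSeq coding starts gave -590 bp, -22.4 and -2.19 percentile points for H3K4me3 width and fold, which then did not pass. Without single replicates, H3K27ac minus H3K4me1 ran from 3.07 to 3.99 and passed no longer without mouse 1, 4, 8, 10 or 11. H3K4me3 width against coding ran from -645 to -533 bp, and fold percentile from -28.5 to -21.9 (coding) and -5.56 to -4.22 (lncRNA). Called sites ran from 0 to 4 and 2 to 16 (H3K4me3, temperature and diet), 3 to 9 and 0 to 5 (H3K27ac) and 0 to 2 and 1 to 30 (H3K4me1), with 16 without mouse 11, 9 without mouse 10 and 30 without mouse 1. The lists hold no depth, and the shortest ones limit every count over all mice.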

Other observations

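The 7 starts in a 5' UTR of the host stood apart in H3K4me1, which was present at 30.4% ± 32.8 of them (SD, n = 8 mice) and at 5 of the 7 in at least 1 mouse, while H3K4me3 was at 3.57% ± 6.61. H3K4me1 was present at 1.73% ± 1.71 of the 123 starts in a 3' UTR. These values were noticed after the data were seen and rest on few sites. Among the 37 starts in developmental hosts, 3300002A11Rik in Foxn3 had H3K27ac in 8 mice and H3K4me1 in 3, and Gm16141 in Meis1, 1815 bp from a coding start of the comprehensive set, had H3K4me3 in 4 mice and H3K27ac in 6.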
